A study of Mus musculus with 15 samples.

Results

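The transcripts described here come from the mitochondrial genome. They were chosen as every row of the count table whose gene name begins with mt-, which gave 37 of 54456 genes, of which 13 are messenger RNAs, 2 ribosomal RNAs and 22 transfer RNAs. All 37 lay on chromosome M, 28 on the plus strand and 9 on the minus strand. RNA was taken from wild-type mouse mammary gland organoids, clusters of mammary epithelial cells kept in DMEM/F12 with L-Ala-Gln, ITS and P/S, in an experiment on whether migrating mammary epithelium undergoes an epithelial-to-mesenchymal transition. The 15 libraries formed 5 groups of 3: organoids facing beads soaked in FGF10, a fibroblast growth factor, for 36 h or 72 h, organoids facing beads soaked in BSA, a carrier protein without growth factor activity, for 36 h or 72 h, and organoids collected at 0 h. All groups shared the wild-type genotype and the medium. The labels do not say whether libraries of a group came from separate cultures or animals, so p-values measure the spread between these libraries, which may be technical. The BSA 72 h libraries are numbered 2_1, 2_2 and 3. Whether 2_1 and 2_2 share a culture is not given in the labels; they were counted as 2 libraries, and where a 72 h call was lost with both as 1, this is said beside it.

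The circular mitochondrial genome encodes core subunits of respiratory complexes I, III and IV and of ATP synthase, together with the ribosomal and transfer RNAs that translate them inside the organelle. Each strand is copied as a long precursor by the mitochondrial RNA polymerase, and the transfer RNAs that punctuate it are cut out to release the messenger and ribosomal RNAs. Levels of single mature transcripts then also depend on their polyadenylation and decay.

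Depth ranged from 11965322 to 24261233 counts per library. The 10 epithelial markers fixed for these libraries were all detected in every group, with summed levels between 22691 and 44683 CPM (counts scaled to a common library size) in each library. Markers of other cell types differed between groups and are given beside the results they accompany. FGF10 36 h replicate 4 and BSA 36 h replicate 2 stood apart in mitochondrial transcripts, as described below, and results that rest on them are given with and without them. Both were picked by the values tested, so calls and p-values without them are no independent test. In bulk RNA, fewer cells of a type and less RNA per cell cannot be told apart.

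On chromosome 1, 7 nuclear genes lie side by side on the minus strand between positions 24650616 and 24655278 of GRCm39. They nearly repeat 7 of the 13 messenger RNA genes, and their rows hold counts that a mitochondrial fragment could have given. The copies of mt-Co2, mt-Atp6, mt-Co3, mt-Nd4l and mt-Nd4 had no mismatch over their aligned bases. The copy of mt-Nd3 differed by T3C, and the copy of mt-Co1, which covers only its bases 1063 to 1545, by A1066T, with positions counted from 1 at the 5′ end of the mitochondrial gene and the mitochondrial base given first. The 3 pairs printed here show both differences, each as a base in capitals, and a pair with none, where the capitals mark the start codon. Sequences are from GENCODE vM21 (GRCm38), in which the starts, ends and strands of all 37 genes on chromosome M were the same as in the table.
mt-Nd3: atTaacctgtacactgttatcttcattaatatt
Gm28438: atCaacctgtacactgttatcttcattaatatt
mt-Co1: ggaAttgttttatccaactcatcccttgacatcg
Gm29216: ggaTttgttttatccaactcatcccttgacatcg
mt-Atp6: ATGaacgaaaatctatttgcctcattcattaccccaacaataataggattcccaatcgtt
Gm10925: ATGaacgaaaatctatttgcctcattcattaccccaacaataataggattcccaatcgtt

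The split of counts between a mitochondrial gene and its copy differed far more between pairs than between libraries. Gm10925 held 70.05% to 74.4% of the counts of its pair with mt-Atp6 across the 15 libraries, and Gm28437 held 47.3% to 63.0% of its pair with mt-Co3. The share was 44.5% to 54.7% for Gm28661 with mt-Co2, 47.0% to 55.6% for Gm10222 with mt-Nd4l and 25.8% to 39.0% for Gm28438 with mt-Nd3. It was 2.95% to 4.96% for Gm29216 with mt-Co1 and 1.36% to 2.16% for Gm28439 with mt-Nd4. Levels of mt-Atp6, mt-Co2, mt-Co3, mt-Nd3 and mt-Nd4l are therefore uncertain, because fragments placed in several genome positions were not counted and the rest was divided between near-identical rows. Levels of mt-Co1 and mt-Nd4 are limited as well, since 483 of 1545 and 876 of 1378 bases are repeated or nearly repeated in their copies. The small shares of these copies do not show how many fragments with several positions were lost. Only annotated transcripts were searched, so the chromosome 1 sequence between the copies was not compared. On the mitochondrial genome, mt-Atp8 and the transfer RNAs mt-Ts1, mt-Td, mt-Tk, mt-Tg and mt-Tr lie between genes that have such a copy. Whether their fragments were lost in the same way was not tested. Of other nuclear genes, 14 aligned to a mitochondrial gene over 100 bases or more. Their counts amounted to at most 2.82% of those of the mitochondrial gene, for Gm13341 with mt-Co2.

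**Figure D1:**
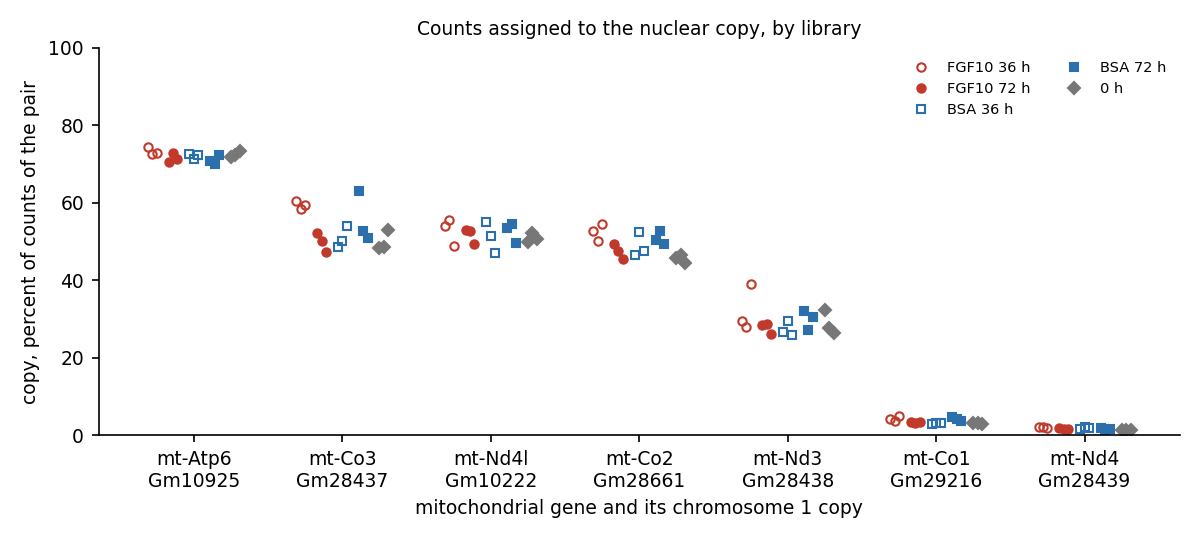
Share of counts held by the chromosome 1 copy, as a percent of the copy and its mitochondrial gene together, for each of 7 pairs in 15 libraries. Points are libraries coloured by group; the pair of mt-Atp6 lies at 70.05% to 74.4% and the pair of mt-Nd4 at 1.36% to 2.16%.

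At 72 h the mitochondrial genome took a larger part of the counts in every FGF10 library than in any BSA library. The 37 genes held 4.55%, 4.49% and 3.90% of all counts in the FGF10 72 h libraries, against 2.55%, 2.21% and 2.596% in the BSA 72 h libraries. The 2 groups did not overlap, and the mean difference was 1.86 percentage points. At 36 h the share was 3.97%, 3.598% and 1.11% in the FGF10 libraries and 3.43%, 2.02% and 2.59% in the BSA libraries. These groups overlapped, since replicate 4 of FGF10 36 h held the lowest share of all 15 libraries. The 0 h libraries held 2.17%, 2.16% and 2.59%, below all FGF10 72 h libraries and within or near the range of the BSA libraries. Counting error was small beside these differences: the 95% binomial interval (exact, Clopper-Pearson) was 4.54% to 4.56% in FGF10 72 h replicate 2 and 1.10% to 1.11% in FGF10 36 h replicate 4, and covers counting error only.

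With 3 libraries against 3, the smallest two-sided exact permutation p is 0.1, and the 72 h difference reached it (p = 0.1, exact permutation, and 0.3 after Benjamini-Hochberg adjustment over 9 comparisons of the share). With BSA 72 h replicates 2_1 and 2_2 averaged into 1 value, the difference was 1.83 points (exact permutation p = 0.1, 3 libraries against 2 values). FGF10 72 h lay 2.01 points above 0 h with the same p of 0.1 by the exact test. The 36 h difference was 0.212 points (exact permutation p = 0.8). Averaged over both times, the FGF10 libraries lay 1.04 points higher than the BSA libraries (exact permutation p = 0.095, where 0.005 was the smallest possible). Without FGF10 36 h replicate 4 that mean difference was 1.48 points (exact permutation p = 0.01), and the 36 h difference was 1.10 points. That library was singled out by its low share, the value compared here, so this p is no independent test. The 36 h difference turned to -0.327 points without FGF10 36 h replicate 1 and to -0.140 without FGF10 36 h replicate 3. Without BSA 36 h replicate 2 it was -0.119 points. Within the arms, FGF10 72 h lay 1.42 points above FGF10 36 h (exact p = 0.2) and BSA 72 h lay 0.229 points below BSA 36 h (difference -0.229, exact p = 0.8). None of the 9 comparisons passed an adjusted p of 0.05.

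The messenger and ribosomal RNAs showed the 72 h difference separately. The 13 messenger RNAs held 3.601%, 3.73% and 3.17% of counts in FGF10 72 h libraries and 2.09%, 1.84% and 2.17% in BSA 72 h libraries. The 2 ribosomal RNAs held 0.947%, 0.762% and 0.726% in FGF10 72 h libraries and 0.460%, 0.373% and 0.425% in BSA 72 h libraries. Both classes were without overlap at 72 h (exact permutation p = 0.1 each). The libraries were made by poly(A) capture, so the ribosomal and transfer RNA counts are those of fragments that entered a poly(A) library and not of the whole pool of these RNAs.

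**Figure D2:**
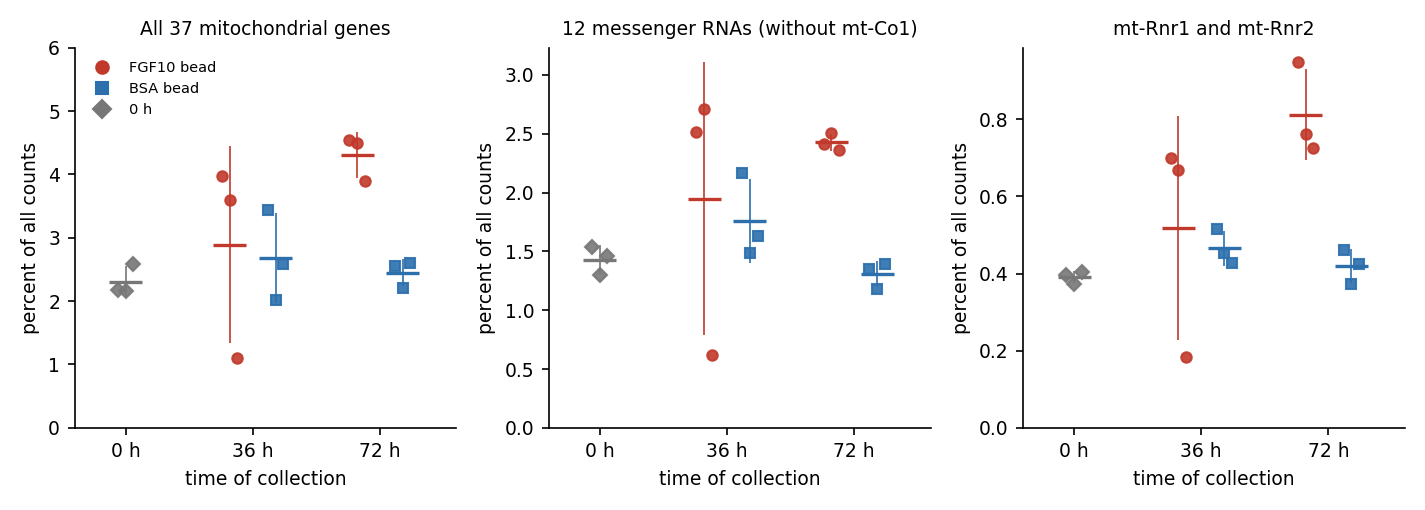
Percent of all counts in each library that fell in all 37 mitochondrial genes, in the 12 messenger RNAs other than mt-Co1 and in the 2 ribosomal RNAs, by time (h) and bead. Points are libraries and lines give the mean and SD of 3 libraries; the FGF10 72 h shares of all 37 genes, 3.90% to 4.55%, lie above the BSA 72 h shares of 2.21% to 2.596%.

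Markers of other cells moved with this difference. The summed level of 10 epithelial markers was 34238 to 38890 CPM in FGF10 72 h libraries and 22691 to 25098 CPM in BSA 72 h libraries. The 10 basal markers summed to 19632 to 22534 CPM with FGF10 at 72 h and 10171 to 12037 CPM with BSA. Medians of single basal markers at 72 h went both ways. Krt14 had 11342 CPM with FGF10 and 3968 CPM with BSA, and Krt5, Krt17, Trp63, Acta2 and Actg2 were also higher. Cnn1 (110 against 259 CPM), Mylk (35.5 against 94.3 CPM), Myh11 and Oxtr were lower with FGF10. Of the epithelial markers, Krt18 and Elf5 had lower medians with FGF10. The 12 adipocyte markers summed to 11.2 to 71.0 CPM in FGF10 72 h libraries and 460.1 to 467.9 CPM in BSA 72 h libraries, with 1 marker at 0 in each group. Summed endothelial, immune and fibroblast markers were likewise lower in every FGF10 72 h library than in any BSA 72 h library. Among medians of single markers, fibroblast Fbln1 (22.7 against 8.43 CPM) and endothelial Flt1 (3.10 against 2.79 CPM) were higher with FGF10 at 72 h. Immune Cd3e had a median of 0 in both groups, and the other markers of these lists were lower with FGF10. The 11 endothelial markers summed to 17.3 to 34.5 CPM with FGF10 at 72 h and 107 to 252 CPM with BSA, the 13 immune markers to 79.0 to 125 CPM with FGF10 (1 marker at 0) and 376 to 464 CPM with BSA, and the 9 fibroblast markers to 57.8 to 68.5 CPM with FGF10 and 88.3 to 177 CPM with BSA. The 5 erythroid markers overlapped, at 1.46 to 1.77 CPM with FGF10 and 1.61 to 2.53 CPM with BSA, with 2 markers at 0 in each group. The part of these cells in the mitochondrial differences was not tested.

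Per gene, 21 of the 37 mitochondrial genes had enough counts to be tested: the 13 messenger RNAs, both ribosomal RNAs and 6 transfer RNAs. Values below are CPM scaled by the trimmed mean of M-values (TMM), and a gene was called where its Benjamini-Hochberg adjusted p over 18140 genes was under 0.05 in the edgeR quasi-likelihood test. In FGF10 against BSA at 72 h, 1 of the 21 was called higher, mt-Nd1, and none lower, where 3.01% of all tested genes were called higher and 2.98% lower. All 21 had a log2 difference above 0, as did 49.1% of all tested genes. The median log2 difference was 1.11 over the 13 messenger RNAs and 1.14 over the 2 ribosomal RNAs, against -0.01 over all tested genes, and 10 of the 21 had an unadjusted p under 0.05, as did 23.5% of all tested genes. In 15 of the 21 every FGF10 72 h library lay above every BSA 72 h library, as in 21.9% of all tested genes: 12 messenger RNAs, both ribosomal RNAs and mt-Tr. The count of calls differed between settings. DESeq2 called 8 of 21 higher (5.31% of all tested genes), limma 13 (14%) and a fit to the 2 groups alone 14 (15.2%), while scaling by library totals (1.6%), no filter on low counts (1.48%), or BSA 72 h replicates 2_1 and 2_2 summed as 1 library (0.723%) gave 0.

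Among the complex I subunits, mt-Nd1 was the gene that passed the test. It had 6615, 6308 and 6067 CPM in FGF10 72 h libraries and 2789.7, 2324 and 2876 CPM in BSA 72 h libraries. The groups were far apart and each was tight, with means of 6330 ± 275 CPM in FGF10 72 h and 2663 ± 297 CPM in BSA 72 h libraries (SD, n = 3 each). The log2 difference was 1.25 ± 0.33 (SE), or 2.38-fold (edgeR adjusted p = 0.036). The call was lost when any 1 of the 6 libraries at 72 h was left out, with adjusted p between 0.085 and 0.137, and was kept with an adjusted p of 0.0003 without FGF10 36 h replicate 4. With BSA 72 h replicates 2_1 and 2_2 summed the log2 difference was 1.22 and the call was lost (adjusted p = 0.122).

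The other complex I messenger RNAs did not pass, and their differences were unequal. mt-Nd2 had 1971, 1704 and 1599.7 CPM in FGF10 72 h libraries and 1021, 833 and 899 CPM in BSA 72 h libraries, with a log2 difference of 0.94 (adjusted p = 0.093). mt-Nd4 had 2351, 2216 and 1839 CPM in FGF10 72 h libraries and 1428, 1221 and 1373 CPM in BSA 72 h libraries, a log2 difference of 0.67 (adjusted p = 0.221). mt-Nd5 stood close between the groups, at 918, 1020.4 and 855 CPM in FGF10 72 h libraries and 807, 711 and 818 CPM in BSA 72 h libraries (log2 difference 0.26, adjusted p = 0.754). mt-Nd6, the one messenger RNA copied from the other strand, overlapped between the groups, with 387, 373 and 309 CPM in FGF10 72 h libraries and 336, 268 and 252 CPM in BSA 72 h libraries (log2 difference 0.32, adjusted p = 0.567). The counting took no account of strand, so reads of mt-Nd6 and of antisense RNA across it cannot be told apart. mt-Nd3 and mt-Nd4l, both with a nuclear copy, had log2 differences of 1.35 and 0.86 and did not pass.

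mt-Cytb, the mitochondrial subunit of complex III, had the highest counted mean per full gene length of the messenger RNAs at 72 h in both arms. Its rank over mt-Co1 is uncertain. Of the 1545 bases of mt-Co1, 483 are nearly repeated in Gm29216, and fragments with several genome positions were not counted. mt-Cytb had 10582.5, 11881 and 10439 CPM in FGF10 72 h libraries and 4974, 4642 and 5677 CPM in BSA 72 h libraries. The groups did not overlap, and the log2 difference was 1.11 ± 0.39 (SE), short of the threshold (adjusted p = 0.105). On the scale of CPM of library totals per kilobase, mt-Cytb stood at 9229 ± 582 in FGF10 72 h libraries and 4815 ± 476 in BSA 72 h libraries (SD, n = 3 each). Next in FGF10 72 h libraries came mt-Co1 at 6946 ± 1514 and mt-Nd1 at 6367 ± 161, whose ranges overlapped, and then mt-Rnr2 at 4813 ± 671. In BSA 72 h libraries mt-Co1 at 4676 ± 391 overlapped mt-Cytb, and mt-Nd1 at 3009 ± 345 and mt-Rnr2 at 2490 ± 255 overlapped each other. mt-Nd4l was lowest, at 78.4 ± 6.78 in FGF10 72 h libraries and 48.6 ± 3.65 in BSA 72 h libraries, with its copy holding about as many counts.

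Of the complex IV subunits, mt-Co2 and mt-Co3 differed by more than mt-Co1. mt-Co2 had 473, 511 and 502 CPM in FGF10 72 h libraries and 177, 156 and 198 CPM in BSA 72 h libraries, a log2 difference of 1.49 ± 0.49 (SE; adjusted p = 0.092). mt-Co3 had 1427, 1687 and 1700.0 CPM in FGF10 72 h libraries and 512, 577 and 678 CPM in BSA 72 h libraries, a log2 difference of 1.45 (adjusted p = 0.095). Neither passed, although neither overlapped. mt-Co1 had 12546.5, 12881.5 and 8121 CPM in FGF10 72 h libraries and 6694, 6109.6 and 7249 CPM in BSA 72 h libraries, with a log2 difference of 0.74 and a wide error of 0.65 (SE; adjusted p = 0.535). Both ATP synthase subunits were near the threshold: mt-Atp6 had 340.4, 267 and 255 CPM in FGF10 72 h libraries against 130.1, 99.6 and 106 CPM in BSA 72 h libraries (log2 difference 1.36, adjusted p = 0.058). mt-Atp8, whose row overlaps that of mt-Atp6 by 43 bases in which fragments of both were not counted, had 255, 259 and 247 CPM in FGF10 72 h libraries against 103, 91.9 and 100.1 CPM in BSA 72 h libraries (log2 difference 1.37, adjusted p = 0.073).

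The ribosomal RNAs were also higher in each FGF10 72 h library, without passing the test. mt-Rnr2, the large ribosomal RNA, had 9312, 7525 and 6924 CPM in FGF10 72 h libraries and 3935, 3269 and 3722 CPM in BSA 72 h libraries. The log2 difference was 1.12 ± 0.33 (SE; adjusted p = 0.056). mt-Rnr1, the small ribosomal RNA, had 681, 487 and 413 CPM in FGF10 72 h libraries and 257, 200.3 and 251 CPM in BSA 72 h libraries (log2 difference 1.16, adjusted p = 0.157). The ratio of mt-Rnr2 to mt-Rnr1 counts was 25.4 in FGF10 36 h replicate 4 and 13.1 to 20.8 in the other 14 libraries.

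**Figure D3:**
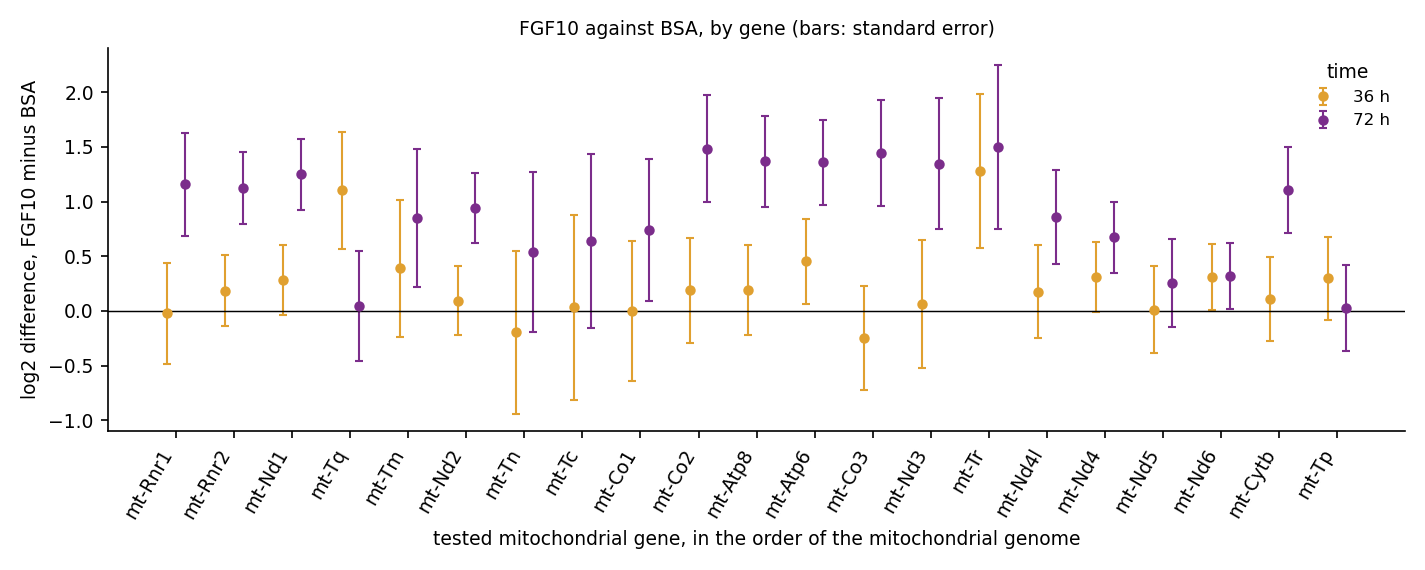
Log2 difference of FGF10 against BSA for the 21 tested mitochondrial genes at 36 h and 72 h, with the SE of the fit. All 21 points at 72 h lie above 0, while those at 36 h lie between -0.25 and 1.28.

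At 36 h no mitochondrial gene was called in FGF10 against BSA by edgeR (0 of 21, with 2.34% of all tested genes called), and 0 of 21 had an unadjusted p under 0.05, beside 18.7% of all. DESeq2 called 0 and limma called 1. Log2 differences ran from -0.25 to 1.28, and 17 of 21 were above 0, beside 50.2% of all tested genes. No gene separated the FGF10 36 h libraries from the BSA 36 h libraries in either direction, where 9.88% of all tested genes did so upward and 9.53% downward. mt-Nd1 shows the pattern, with 8128, 8179 and 2377 CPM in FGF10 36 h libraries and 5526, 4852 and 4937 CPM in BSA 36 h libraries. Replicate 4 of FGF10 36 h lay below all BSA 36 h libraries and replicates 1 and 3 above them. For mt-Cytb the values were 9440.3, 10041 and 2135 CPM in FGF10 36 h libraries and 8569.8, 5478 and 5986 CPM in BSA 36 h libraries, with the same replicate lowest.

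Leaving out FGF10 36 h replicate 4, singled out by its low mitochondrial share, changed the counts of calls. At 36 h, 7 of the 23 mitochondrial genes tested without it were called higher, namely mt-Nd1, mt-Co2, mt-Atp8, mt-Atp6, mt-Nd4l, mt-Nd4 and mt-Nd6, where 1.38% of all tested genes were called higher. Their log2 differences lay between 0.64 and 0.88, for example 0.68 for mt-Nd1 (edgeR adjusted p = 0.021). At 72 h, 12 of 23 were called higher without it, against 5.84% of all tested genes. The 12 were both ribosomal RNAs and 10 messenger RNAs, all but mt-Co1, mt-Nd5 and mt-Nd6. Leaving out BSA 36 h replicate 2 as well gave 3 calls of 23 at 36 h (0.945% of all tested genes) and 12 of 23 at 72 h (6.25%).

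Averaged over both times, 2 of 21 were called higher with FGF10, mt-Nd1 with a log2 difference of 0.77 (edgeR adjusted p = 0.034) and mt-Atp6 with 0.91 (adjusted p = 0.041), where 7.45% of all tested genes were called higher. Both calls were lost with BSA 72 h replicates 2_1 and 2_2 summed (adjusted p = 0.073 and 0.074). The change of the FGF10 difference between 36 h and 72 h was not called for any gene by edgeR, mitochondrial or other (0 of 21, with 0% of all tested genes called), and DESeq2 and limma called 0 mitochondrial genes. Of the 21, 1 had an unadjusted p under 0.05, beside 5.5% of all tested genes: mt-Co3, with a log2 change of 1.69 and an edgeR adjusted p of 0.875. The larger 72 h differences are thus not shown to differ from those at 36 h.

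Against 0 h, the FGF10 72 h libraries were higher in most mitochondrial genes. Of 21, 6 were called higher, where 13.8% of all tested genes were, and in 19 every FGF10 72 h library lay above every 0 h library, as in 23.9% of all tested genes. The 6 were mt-Nd2 (log2 difference 1.30, adjusted p = 0.007), mt-Nd6 (0.91, adjusted p = 0.035), mt-Rnr2 (1.00, adjusted p = 0.031) and the transfer RNAs mt-Tq, mt-Tm and mt-Tr. mt-Nd2 had 1971, 1704 and 1599.7 CPM in FGF10 72 h libraries and 609, 785 and 748 CPM at 0 h. In FGF10 36 h libraries 6 of 21 were called higher than at 0 h, where 19.3% of all tested genes were: mt-Nd2 (0.96, adjusted p = 0.028), mt-Nd6 (0.80, adjusted p = 0.046) and mt-Tq, mt-Tm, mt-Tr and mt-Tp. The 0 h libraries are shared by these comparisons. Without FGF10 36 h replicate 4 the calls numbered 19 of 23 for FGF10 72 h, where 16.6% of all tested genes were called higher, and 13 of 23 for FGF10 36 h, where 17.6% were. For FGF10 72 h they numbered 3 of 22 without FGF10 72 h replicate 2 (10.6% of all tested genes), 2 of 23 without 0 h replicate 1 (14.3%) and 1 of 23 without 0 h replicate 4 (10.1%). For FGF10 36 h they numbered 2 of 23 without FGF10 36 h replicate 1 (16.2%) or 0 h replicate 4 (14.4%). They numbered 3 without FGF10 72 h replicate 2 (17.5%), BSA 72 h replicate 2_2 (17.4%), 0 h replicate 1 (18.5%) or 0 h replicate 2 (14.5%). A fit to the 2 groups alone called 0 of 19 (9.93%). Cell type markers also differed from 0 h. The 10 basal markers summed to 19632 to 22534 CPM in FGF10 72 h libraries and 9622 to 15702 CPM at 0 h. The 10 epithelial markers summed to 34238 to 38890 CPM in FGF10 72 h libraries and 40899 to 44683 CPM at 0 h. The 13 luminal markers summed to 16901 to 19028 CPM in FGF10 72 h libraries and 27734 to 37902 CPM at 0 h. The 13 immune markers summed to 79.0 to 125 CPM in FGF10 72 h libraries and 1436 to 1846 CPM at 0 h. The fibroblast markers summed to 57.8 to 68.5 CPM in FGF10 72 h libraries and 107 to 659 CPM at 0 h. The erythroid markers summed to 1.46 to 1.77 CPM in FGF10 72 h libraries and 37.4 to 130 CPM at 0 h. Medians of single markers went both ways. Higher in FGF10 72 h libraries than at 0 h were basal Krt5, Krt14, Krt17 and Trp63 and luminal Aldh1a3 (506 against 175 CPM), Cd14 and Elf5. So were immune Cd68, Lyz2 and Itgam and fibroblast Fbln1. The other basal, luminal, immune and fibroblast markers were lower. The part of these cells in these differences was not tested.

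In the BSA arm, mitochondrial genes stood on both sides of their 0 h levels. In BSA 36 h libraries 1 of 21 was called higher, mt-Tp, where 12.7% of all tested genes were, and in BSA 72 h libraries 1 of 21, mt-Tq, where 12.2% were. Both calls were lost with BSA 72 h replicates 2_1 and 2_2 summed, and that of mt-Tp also with the replicate block. None was called lower in BSA 72 h libraries by edgeR or DESeq2, where edgeR called 13% of all tested genes lower, while limma called 2. Still, 7 messenger RNAs, mt-Nd1, mt-Co2, mt-Atp8, mt-Atp6, mt-Co3, mt-Nd3 and mt-Cytb, had all BSA 72 h libraries below all 0 h libraries, as did 23.5% of all tested genes. mt-Cytb had 4974, 4642 and 5677 CPM in BSA 72 h libraries and 7434, 6939 and 7036 CPM at 0 h. In CPM of library totals, without TMM, mt-Nd1, mt-Atp6 and mt-Cytb overlapped between these groups. The mean share of all 37 genes was 2.45% in BSA 72 h libraries and 2.31% at 0 h (exact permutation p = 0.4). Without FGF10 36 h replicate 4, 10 of 23 were called in BSA 72 h libraries, 7 of them lower, where 30% of all tested genes were called in either direction. In the same comparison mt-Nd2 and mt-Nd6 had all BSA 72 h libraries above all 0 h libraries, with mt-Tq and mt-Tp, as did 21.9% of all tested genes. Between 72 h and 36 h, edgeR called 0 of 21 in the FGF10 arm, where 1.91% of all tested genes were called, and 0 of 21 in the BSA arm, where 0.469% were. With an unadjusted p under 0.05 there were 2 in each arm, beside 16.8% of all tested genes in the FGF10 arm and 16% in the BSA arm; DESeq2 called 0 in both arms and limma 0 in the FGF10 arm and 3 in the BSA arm. mt-Nd1 was 2789.7, 2324 and 2876 CPM in BSA 72 h libraries and 5526, 4852 and 4937 CPM in BSA 36 h libraries, a log2 difference of -0.94 (adjusted p = 0.178).

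The make-up of the messenger RNA pool also differed at 72 h. This was measured, after values had been seen, as the percent of counts within the 12 messenger RNAs other than mt-Co1. Of the 12, 4 took a larger part in every FGF10 72 h library than in any BSA 72 h library and 4 a smaller part, each with the smallest possible exact permutation p of 0.1. These parts exist only within the 12, so no share of all tested genes stands beside this count. Larger with FGF10 was the part of mt-Nd1, 25.1% ± 1.04 in FGF10 72 h against 21.98% ± 0.723 in BSA 72 h libraries (SD, n = 3 each, here and below). mt-Co3 held 6.38% ± 0.754 in FGF10 72 h against 4.88% ± 0.627 in BSA 72 h libraries and mt-Co2 held 1.97% ± 0.122 against 1.46% ± 0.0525 with BSA. mt-Atp8 held 1.01% ± 0.0242 with FGF10 against 0.814% ± 0.0391 with BSA. Smaller with FGF10 was the part of mt-Nd5, 3.69% ± 0.165 in FGF10 72 h against 6.44% ± 0.137 in BSA 72 h libraries. So were those of mt-Nd4 (8.45% ± 0.772 with FGF10 and 11.1% ± 0.519 with BSA), mt-Nd6 (1.41% ± 0.114 with FGF10 and 2.37% ± 0.401 with BSA) and mt-Nd4l (0.0959% ± 0.00685 with FGF10 and 0.11% ± 0.00189 with BSA). On the genome mt-Nd4l, mt-Nd4, mt-Nd5 and mt-Nd6 are neighbours, at chrM:9877-14070, with only transfer RNA genes between them. The parts of mt-Cytb, 43.5% ± 1.79 in FGF10 72 h and 42.1% ± 1.65 in BSA 72 h libraries, overlapped (exact permutation p = 0.4). The parts are not independent, since they sum to the whole, and counts held by nuclear copies of mt-Co2, mt-Co3, mt-Nd4l and mt-Nd4 are not in them. Fragments of these genes with several genome positions are missing with or without the copies. With the copies added, these 8 genes kept their order without overlap, and mt-Atp6 also took a larger part in every FGF10 72 h library. At 36 h, 11 of the 12 parts overlapped between FGF10 and BSA libraries. That of mt-Co3 went the other way than at 72 h, 3.595% ± 1.06 with FGF10 against 5.27% ± 0.636 with BSA (exact permutation p = 0.1). The groups were barely apart, at 4.529% or less with FGF10 and 4.533% or more with BSA. With the copies added, mt-Co3 overlapped at 36 h (exact permutation p = 0.3).

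With time, mt-Nd1 took a smaller part in both arms. It held 25.1% ± 1.04 of the 12 messenger RNAs in FGF10 72 h libraries and 33.6% ± 2.99 in FGF10 36 h libraries, and 21.98% ± 0.723 in BSA 72 h libraries and 30.1% ± 2.24 in BSA 36 h libraries (SD, n = 3 each). Neither pair of groups overlapped (exact permutation p = 0.1 each). At 0 h its part was 23.4% ± 1.26. mt-Nd5 took a larger part in BSA 72 h libraries, 6.29% to 6.55%, than in BSA 36 h libraries, 4.76% to 5.41%.

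**Figure D4:**
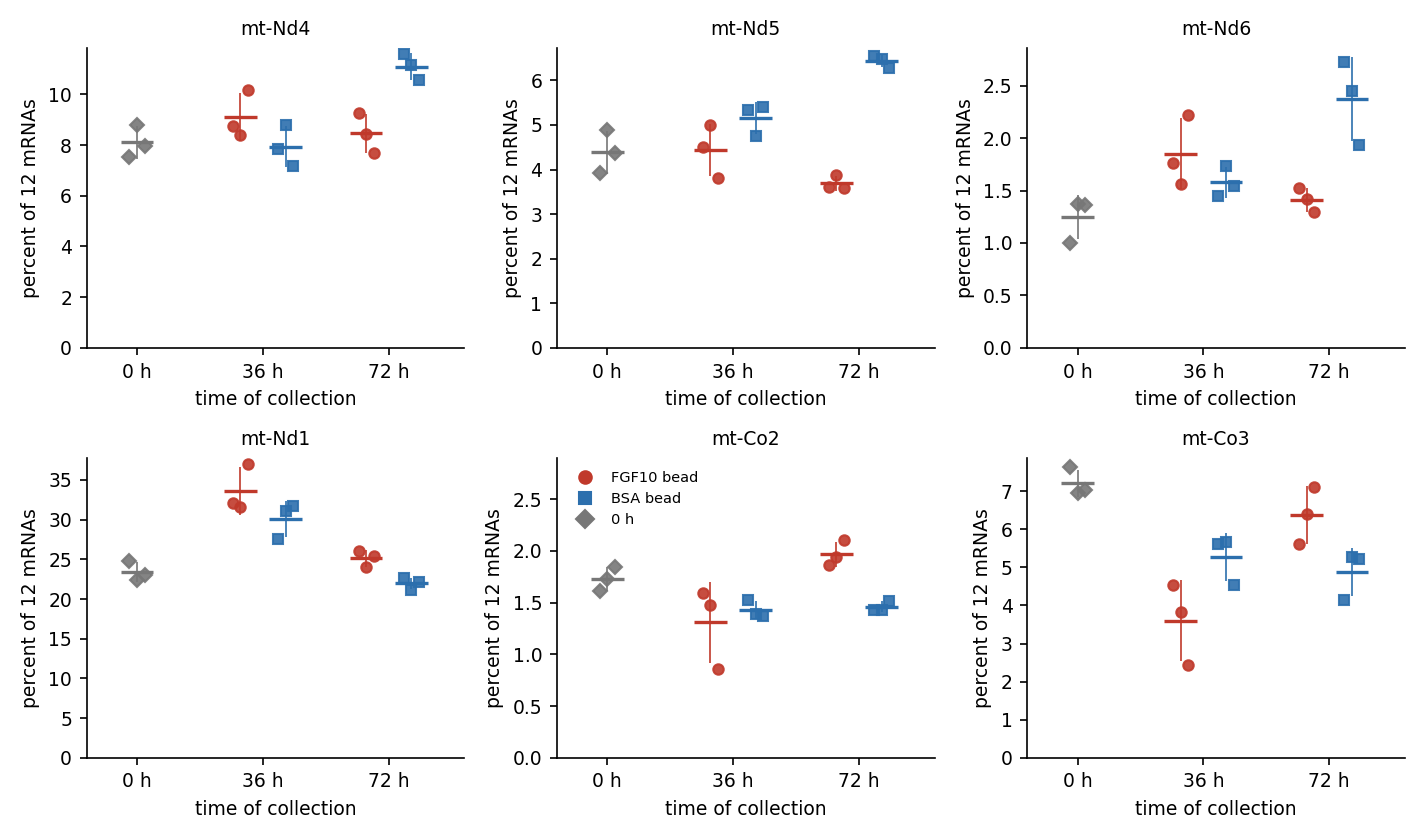
Percent of the counts of the 12 mitochondrial messenger RNAs other than mt-Co1 held by each of 6 genes, by time (h) and bead. Points are libraries and lines give the mean and SD of 3 libraries; at 72 h mt-Nd5 lies at 3.58% to 3.88% with FGF10 and 6.29% to 6.55% with BSA.

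mt-Co1, the catalytic subunit of complex IV, varied among libraries of a group more than any other messenger RNA. Its pooled within-group SD of log2 CPM was 0.953, with 0.443 to 0.857 for the other 12 messenger RNAs, 0.297 for the median tested gene and 0.216 for the median of genes over 100 CPM. BSA 36 h replicate 2 had 819.8 CPM of mt-Co1, beside 6946 and 5089 CPM in its 2 fellow libraries. mt-Co1 made up 4.99% of the counts of the 13 messenger RNAs in that library, 7.42% in FGF10 36 h replicate 3 and 13.5% in 0 h replicate 1, and 23.0% to 35.8% in the other 12 libraries. At 72 h this part was smaller in every FGF10 library, 25.4% to 33.0%, than in any BSA library, 35.2% to 35.8% (exact permutation p = 0.1). The nuclear copy Gm29216 had 494 counts in BSA 36 h replicate 2 and 1419 to 7029 in the others. The 4 transfer RNA genes just before mt-Co1, mt-Ta, mt-Tn, mt-Tc and mt-Ty, on the opposite strand, had 4 counts together in BSA 36 h replicate 2 and 52 to 208 in the others. mt-Nd2, on the far side of that cluster, was 1414 CPM in that library and 1252 and 1227 CPM in its fellows.

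**Figure D5:**
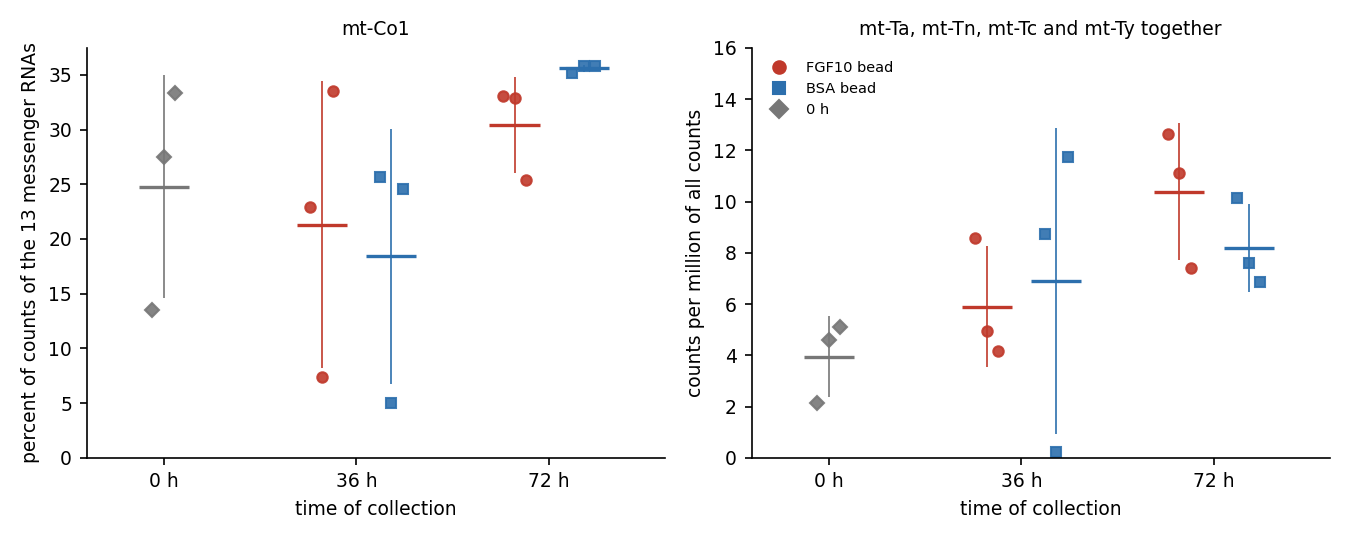
Percent of mitochondrial messenger RNA counts held by mt-Co1 and CPM of the 4 neighbouring transfer RNA genes, for each of 15 libraries. BSA 36 h replicate 2 is lowest in both, at 4.99% and 0.214 CPM.

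With mt-Co1 set aside, a choice made after seeing these values, the other 12 messenger RNAs held 2.41%, 2.50% and 2.37% of counts in FGF10 72 h libraries and 1.35%, 1.179% and 1.39% in BSA 72 h libraries. The groups were again apart, by 1.12 points (exact permutation p = 0.1). The BSA 72 h libraries were also below the BSA 36 h libraries, at 2.17%, 1.49% and 1.63%, without overlap (exact permutation p = 0.1).

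The transfer RNAs were counted sparsely. The 22 transfer RNA genes had 61 to 328 counts per library in all, 6 passed the filter and 16 were not tested. mt-Td and mt-Tk had 0 counts in all 15 libraries. Both lie between genes with a chromosome 1 copy, and whether their fragments were left out for having several genome positions was not tested. The transfer RNAs for arginine (mt-Tr, chrM:9808-9875), proline (mt-Tp, chrM:15356-15422), methionine (mt-Tm, chrM:3845-3913) and glutamine (mt-Tq, chrM:3772-3842) were the ones called against 0 h. Their genes are printed 5′ to 3′ on their own strand, as DNA from GENCODE vM21, with the anticodon in capitals.
mt-Tr: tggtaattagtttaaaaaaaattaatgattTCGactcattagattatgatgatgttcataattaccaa
mt-Tp: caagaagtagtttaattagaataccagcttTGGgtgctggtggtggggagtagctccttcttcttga
mt-Tm: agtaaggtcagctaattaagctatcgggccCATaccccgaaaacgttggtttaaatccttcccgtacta
mt-Tq: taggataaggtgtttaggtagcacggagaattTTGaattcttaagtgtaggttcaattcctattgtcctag

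Each of these genes was called higher than at 0 h in 1 or more groups, on few counts. mt-Tr, which lies between mt-Nd3 and mt-Nd4l, had 36, 29 and 5 counts in FGF10 36 h libraries, 14, 12 and 23 in FGF10 72 h libraries, 9, 16 and 5 in BSA 36 h libraries, 10, 3 and 8 in BSA 72 h libraries and 0, 4 and 2 at 0 h. It was called higher than at 0 h in FGF10 36 h libraries (log2 difference 3.42 ± 0.88 SE, edgeR adjusted p = 0.007) and in FGF10 72 h libraries (3.07 ± 0.90 SE, adjusted p = 0.018), and these values rest on the 6 counts of the 0 h libraries. The FGF10 72 h call was lost without 0 h replicate 1, 0 h replicate 4 or FGF10 72 h replicate 4, with adjusted p between 0.060 and 0.063. mt-Tp had 46, 38 and 15 counts in FGF10 36 h libraries, 20, 26 and 38 in BSA 36 h libraries and 19, 7 and 12 at 0 h. It was called higher than at 0 h in FGF10 36 h (log2 difference 1.47, adjusted p = 0.010) and BSA 36 h libraries (1.176, adjusted p = 0.044). The BSA 36 h call was lost with the replicate block (adjusted p = 0.113) and with BSA 72 h replicates 2_1 and 2_2 summed (adjusted p = 0.054). mt-Tp is on the minus strand next to the end of mt-Cytb and mt-Tt, and without strand its counts cannot be told from antisense RNA.

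mt-Tm had 20, 12 and 18 counts in FGF10 36 h libraries, 20, 19 and 12 in FGF10 72 h libraries, 9, 5 and 26 in BSA 36 h libraries, 6, 11 and 18 in BSA 72 h libraries and 5, 6 and 2 at 0 h, with log2 differences from 0 h of 1.92 (adjusted p = 0.044) and 2.14 (adjusted p = 0.035) for FGF10 36 h and FGF10 72 h; the BSA 36 h libraries overlapped those of 0 h. mt-Tq, on the minus strand, had 13, 15 and 28 counts in FGF10 36 h libraries, 21, 20 and 14 in FGF10 72 h libraries, 16, 4 and 7 in BSA 36 h libraries, 26, 26 and 15 in BSA 72 h libraries and 14, 2 and 6 at 0 h. Its log2 differences from 0 h were 1.504 for FGF10 36 h (adjusted p = 0.042), 1.67 for FGF10 72 h (adjusted p = 0.034) and 1.62 for BSA 72 h libraries (adjusted p = 0.041), while the BSA 36 h counts overlapped those at 0 h. The adjusted p of these 5 calls lay between 0.034 and 0.044. Both mt-Tm calls were lost with the replicate block (edgeR adjusted p = 0.067 and 0.068), which kept those of mt-Tq. With BSA 72 h replicates 2_1 and 2_2 summed, the mt-Tq calls in FGF10 36 h and BSA 72 h libraries were lost (edgeR adjusted p = 0.051 and 0.096). That sum kept the mt-Tq call in FGF10 72 h libraries and both mt-Tm calls. mt-Tn and mt-Tc, of the cluster beside mt-Co1, were tested and not called in any comparison. Outside that cluster the 18 other transfer RNAs had 5.70 to 10.6 CPM of library totals in FGF10 36 h libraries, 6.995 to 8.60 in FGF10 72 h libraries, 3.04 to 6.46 in BSA 36 h libraries, 5.195 to 5.69 in BSA 72 h libraries and 1.59 to 2.17 at 0 h. All 12 libraries of 36 h and 72 h were above all 3 at 0 h, a measure also chosen after values had been seen.

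Nuclear genes that serve the mitochondrial genome were read from lists. Of the mitochondrial transcription and replication genes 0 of 18 were called in FGF10 against BSA at 72 h, where 5.99% of all tested genes were called in either direction, and 0 of 18 at 36 h. Polrmt, the mitochondrial RNA polymerase, had a log2 difference of 0.13 at 72 h (adjusted p = 0.665), Tfam, a transcription factor that packages the mitochondrial genome, 0.12 (adjusted p = 0.610) and Mterf2, of the mitochondrial termination factor family, 0.63 (adjusted p = 0.218). Twnk, the mitochondrial helicase, had -0.68 at 36 h (adjusted p = 0.280). Of the genes of RNA processing and stability, 0 of 27 were called at either time, and Fastkd2 and Lrpprc, an RNA-binding protein that stabilises mitochondrial messenger RNAs, had log2 differences of 0.36 and 0.35 at 72 h (adjusted p = 0.085 and 0.088). Of 11 regulators of mitochondrial content 0 were called at either time: Ppargc1a, a coactivator of mitochondrial biogenesis, had -0.27 at 72 h (adjusted p = 0.715), Esrrg -2.33 at 72 h (adjusted p = 0.073) and Esrra -0.44 at 36 h (adjusted p = 0.170).

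Among the mitochondrial transfer RNA ligases, 1 of 17 was called higher and 1 lower with FGF10 at 72 h, where 3.01% of all tested genes were called higher and 2.98% lower. Lars2, the leucine ligase, had 1663, 1604 and 1655 CPM in FGF10 72 h libraries and 405.9, 409 and 279 CPM in BSA 72 h libraries. The log2 difference was 2.17 ± 0.41 (SE), or 4.50-fold (edgeR adjusted p = 0.012), and at 0 h Lars2 had 1278, 1288 and 1626 CPM. Aligning mt-Rnr2 to the Lars2 transcripts of GENCODE vM21 gave 0 matches. Only mitochondrial genes were searched, so whether fragments of other ribosomal RNA were counted in Lars2 was not tested. Cars2, the cysteine ligase, was lower (log2 difference -0.57, adjusted p = 0.014). Of markers of mitochondrial mass, 1 of 17 was called higher, Hspd1, a chaperone of the matrix, with 168, 176 and 222 CPM in FGF10 72 h libraries and 134, 120.2 and 113 CPM in BSA 72 h libraries (log2 difference 0.63, adjusted p = 0.014). Of the mitochondrial ribosomal proteins, 2 of 77 were called higher, no more than the 3.01% of all tested genes: Mrps22 (0.48, adjusted p = 0.034) and Mrpl13 (0.60, adjusted p = 0.049).

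The nuclear subunits of the respiratory chain and ATP synthase, the partners of the mitochondrially encoded ones, had smaller differences. Of 83 tested, 4 were called higher and 0 lower with FGF10 at 72 h, beside 3.01% and 2.98% of all tested genes. A log2 difference above 0 was found in 71 of 83, beside 49.1% of all tested genes, and their median was 0.20, against -0.01 for all tested genes. The 4 were subunits of ATP synthase or a pseudogene of one: Atp5b (0.72, adjusted p = 0.017), Atp5g3 (0.72, adjusted p = 0.021), Atp5pb (0.53, adjusted p = 0.029) and Atp5pb-ps (0.52, adjusted p = 0.020), whose reads cannot be told from those of near-identical copies. Atp5b had 3235, 3353 and 3512 CPM in FGF10 72 h libraries and 1916, 2044 and 2167 CPM in BSA 72 h libraries, while the 0 h libraries had 3418, 3085 and 2823 CPM. With BSA 72 h replicates 2_1 and 2_2 summed, the calls at 72 h were lost for Cars2, Mrps22, Mrpl13 and all 4 ATP synthase genes, with adjusted p between 0.051 and 0.128, and kept for Lars2 (adjusted p = 0.047) and Hspd1 (adjusted p = 0.0498). At 36 h, 0 of 83 were called. Against 0 h the 2 lists with most calls were called most often in FGF10 36 h libraries, where 49 of 77 mitochondrial ribosomal protein genes and 13 of 17 markers of mitochondrial mass were called higher, beside 19.3% of all tested genes; in BSA 36 h libraries these counts were 16 of 77 and 7 of 17, beside 12.7%. In FGF10 72 h libraries they were 6 of 77 and 7 of 17, beside 13.8%.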

How the data were processed

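The authors deposited 1 table of fragment counts per gene, made with featureCounts 2.0.1, as the file headers state: pairs were counted over exons by gene name, without strand, and a fragment with more than 1 genome position or gene was left out, per the file headers. Libraries used a stranded mRNA kit, per the labels' protocols, so the unstranded counting discarded strand. The submitters' processing notes list FastQC, cutadapt 1.9.1, HISAT2 2.2.1, HTSeq, DESeq2 and GRCm39; where they differ from the headers, the headers were followed. The exon length in base pairs, a further deposited column, scaled levels per kilobase. The titles of the FGF10 72 h samples read FGF0, and the treatment label was followed.

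Of 54456 genes, filterByExpr (minimum count 10, minimum total 15) kept 18140. Counts were scaled by TMM and tested with the robust quasi-likelihood test of edgeR 4.0.16 (R 4.3.3), 1 fit to the 5 groups with 10 residual degrees of freedom, with calls made at 0.05 on Benjamini-Hochberg adjusted p-values over all tested genes. The code was tested on simulated data. Each SE was taken as the log2 difference divided by the root of its F statistic. Shares of counts, per library, were compared with two-sided exact permutation tests in Python 3.11.15. Alternatives were DESeq2 1.42.0, limma 3.58.1 (voom with sample weights), other scalings and filters, a replicate block, fits to single pairs of groups and leaving out libraries. Adding the chromosome 1 copies, leaving out mt-Co1, and leaving out FGF10 36 h replicate 4 with BSA 36 h replicate 2 were chosen after seeing the data. Nuclear copies were found with blastn 2.17.0 in GENCODE vM21 (GRCm38) transcripts. Figures were drawn with matplotlib 3.10.9.

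The members and the lists of nuclear and marker genes were chosen with earlier results of these data known. The rule for names took all messenger and ribosomal RNAs, the transfer RNAs that passed the filter, up to 4 called genes of each list or the 2 of smallest p, and Polrmt, Tfam, Lrpprc, Ppargc1a and Lars2.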

Additional observations from a re-analysis of the deposited data

Results flagged for a closer look

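For several messenger RNAs the FGF10 and BSA arms stood on opposite sides of an earlier time, each with all its libraries. Against the shared 0 h libraries, every FGF10 72 h library lay above and every BSA 72 h library below for mt-Nd1, mt-Co2, mt-Atp8, mt-Atp6, mt-Co3 and mt-Cytb, as in 0.678% of all tested genes. This holds for CPM scaled by TMM. In CPM of library totals, BSA 72 h libraries overlapped those of 0 h for mt-Nd1, mt-Atp6 and mt-Cytb. For mt-Cytb, BSA 72 h replicate 3 then had 6077 CPM and 0 h replicate 2 had 5992 CPM. The difference between the arms, which is that of FGF10 against BSA at 72 h, was 1.25 on the log2 scale for mt-Nd1, 1.49 for mt-Co2, 1.37 for mt-Atp8, 1.36 for mt-Atp6, 1.45 for mt-Co3 and 1.11 for mt-Cytb, and only that of mt-Nd1 passed the edgeR test. Between 36 h and 72 h the same held for 3 genes, and for 0.259% of all tested genes, with a log2 difference between the arms of 1.30 for mt-Co2, 1.176 for mt-Atp8 and 1.69 for mt-Co3. None of these 3 passed (edgeR adjusted p = 0.909 for mt-Co2 and mt-Atp8 and 0.875 for mt-Co3). In CPM of library totals, mt-Co2 overlapped within the BSA arm, at 212 CPM in BSA 72 h replicate 3 and 207 CPM in BSA 36 h replicate 2. Groups of 3 are too small for a search for outlying samples.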

How the results depend on the processing

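Replicate numbers were not taken to pair the libraries: deviations from group means correlated with a median of 0.027 over 21 pairs of the same number, over 0.1 in 9 and as low as -0.158, so that the rule for pairing was not met. Over 69 pairs of different numbers the median was -0.012, with 10 over 0.1, and the highest values were 0.449 for the same number and 0.202 for different numbers. With the replicate block, 2 of 21 genes were called higher with FGF10 at 72 h, 3 in FGF10 36 h and 0 in BSA 36 h libraries against 0 h. Limma called 1 higher with FGF10 at 36 h, 13 at 72 h and 14 for the mean of both times, and DESeq2 8 at 72 h and 6 for the mean. Scaling by library totals, no filter, and 2_1 and 2_2 summed each called 0 at 72 h and 0 for the mean; with library totals the median of all genes at 72 h was -0.17 on the log2 scale, and Polrmt and Tfam turned to -0.0357 and -0.0490. Without FGF10 36 h replicate 4 and BSA 36 h replicate 2 the calls were 3, 12 and 15. A fit to the 2 groups alone called 14 at 72 h. Where no share of all tested genes stands beside a count of calls, here or above, a change in it is no result about mitochondrial genes. That share itself changed with the setting. For calls higher with FGF10 at 72 h it was 0.723% with 2_1 and 2_2 summed and 15.2% in the fit to the 2 groups.

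Against 0 h, the calls higher in FGF10 36 h libraries were 14 without both libraries and 0 in a fit to the 2 groups, and in FGF10 72 h libraries 14 with limma, 20 without both and 16 in the fit to the 2 groups. In BSA 36 h libraries they were 2 with library totals, 0 with 2_1 and 2_2 summed, 3 with limma, 2 with DESeq2 and 5 without both. In BSA 72 h libraries they were 0 with 2_1 and 2_2 summed, 2 with limma, 3 without both and 2 in the fit to the 2 groups, and the calls lower were 2 with limma, 7 without both and 5 in the fit to the 2 groups. For BSA 72 h against BSA 36 h limma called 1 higher and 2 lower, and both other fits called 2 lower. These counts, too, lack the share of all tested genes called in the same setting, so they show no change particular to mitochondrial genes.

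Leaving out single libraries gave 0 to 7 calls higher with FGF10 at 36 h, 0 to 12 at 72 h and 0 to 15 for the mean. Against 0 h it gave 2 to 13 in FGF10 36 h, 1 to 19 in FGF10 72 h and 0 to 5 in BSA 36 h libraries, and in BSA 72 h libraries 0 to 3 higher and 0 to 7 lower. For BSA 72 h against BSA 36 h it gave 0 to 2 lower. Calls over all tested genes also changed when libraries were left out, so these ranges show no change particular to mitochondrial genes. The adjusted p of mt-Nd1 at 72 h ranged from 8.3e-06 to 0.137 over all alternatives.

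The share of counts of FGF10 against BSA ranged from -0.327 to 1.10 points at 36 h and from 0.768 to 1.48 for the mean of both times with single libraries left out. That of BSA 36 h against 0 h ranged from -0.00387 to 0.703 and that of BSA 72 h against BSA 36 h from -0.560 to 0.147. Without mt-Co1, the share of BSA 72 h less that of 0 h was -0.0923 points. Leaving out single libraries turned 3 single genes: the log2 difference ranged from -0.0241 to 0.67 for mt-Rnr2 in FGF10 36 h against 0 h, from -0.33 to 0.92 for mt-Tq in BSA 36 h against 0 h and from -0.48 to 0.0485 for Ppargc1a with FGF10 at 72 h. The cause of these changes was not tested. Low counts limit the transfer RNAs. Near-identical annotated nuclear copies limit the levels of 7 messenger RNAs, of which mt-Co1 and mt-Nd4 are repeated over part of their length. Whether mt-Atp8 and the transfer RNAs between these genes are limited in the same way was not tested.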
